A study of Mus musculus with 12 samples.

Results

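The genes described here are 10 members of the Notch pathway: the receptors Notch1, Notch2, Notch3 and Notch4, the ligands Jag1, Jag2 and Dll4, the targets Hes1 and Hey1, and the DNA-binding protein Rbpj. They were chosen by symbol from the 24421 genes of a raw gene count table, because Notch1 was lower in double-knockout non-tumour liver. That comparison is therefore given for all 10 as a description with no test, and Notch1 has no test in any comparison that uses non-tumour libraries. All 10 passed the filter on low counts, which kept 14443 genes.

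The 12 libraries, 3 in each of 4 groups, hold liver RNA of C57BL/6 mice at 15 months of age. Atg7KO livers are labelled as knockouts of Atg7, an enzyme needed to form autophagosomes, and DKO livers, labelled Atg7KO; Hmgb1KO, as knockouts of Atg7 and of Hmgb1, a chromatin protein that also acts as a danger signal outside cells. Each genotype was sampled as tumour and as non-tumour liver. Every group carries the Atg7KO label, so no group with intact Atg7 is compared. The labels name neither the driver of the deletions nor the animal behind each library. The p-values therefore reflect the spread among the libraries, which may be technical. Totals ran from 18292190 reads (DKO non-tumour 2) to 32354958 reads (DKO tumour 1). Both targeted genes had reads in every library. Atg7 averaged 5.56 to 13.0 CPM (reads of a gene scaled to the size of its library) over the groups. Hmgb1 stood at 118 ± 12.3 CPM in Atg7KO and 101 ± 17.4 in DKO non-tumour liver, and at 115 ± 20.4 and 79.0 ± 16.3 in the tumours (SD, n = 3). Without a group with intact Atg7, these gene counts cannot show whether its transcript was reduced. Mean Hmgb1 was lower in DKO than in Atg7KO in both tissues, and it was not absent. DKO and Atg7KO are used as labels of the libraries throughout. The 4 Y-linked genes checked summed to 0 to 2 reads in the Atg7KO libraries and to 1898 to 4639 in the DKO libraries, while Xist had 1130 to 12216 reads against 0 to 2. Genotype and sex-chromosome transcripts cannot be told apart in any comparison of DKO with Atg7KO.

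Notch receptors sit in the membrane and are bound by Jagged or Delta-like ligands on a neighbouring cell. Binding leads to cleavage of the receptor by ADAM proteases and gamma-secretase, and the freed intracellular part enters the nucleus, joins Rbpj and Mastermind-like coactivators and turns on genes such as Hes1 and Hey1. Without it, Rbpj can sit on the same sites with corepressors. In liver the pathway is known for bile duct formation, in which Jag1 and Notch2 act, and for vessels, where Dll4, Notch1 and Notch4 are used by endothelium and Notch3 by the mural cells around it.

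On mm10, Notch1 (NM_008714) is at chr2:26457902-26503822 on the minus strand, Notch2 (NM_010928) at chr3:98013538-98150367 on the plus strand, Notch3 (NM_008716) at chr17:32120893-32166852 on the minus strand and Notch4 (NM_010929) at chr17:34564295-34588543 on the plus strand. The ligands are Jag1 (NM_013822) at chr2:137081451-137116520 on the minus strand, Jag2 (NM_010588) at chr12:112908590-112929495 on the minus strand and Dll4 (NM_019454) at chr2:119325784-119335666 on the plus strand. Hes1 (NM_008235) is at chr16:30065357-30067796 on the plus strand, Hey1 (NM_010423) at chr3:8663359-8667038 on the minus strand and Rbpj (NM_001277116) at chr5:53555779-53657445 on the plus strand. Exons of 4 of these genes share bases with other annotated transcripts in GENCODE M21: Notch1 with 0610009E02Rik (1069 bases) and Gm13568 (414) on the opposite strand, Notch3 with Gm17276 (488) on the opposite strand, Dll4 with Gm14207 (214) on the opposite strand, and Notch2 with Gm42820 (541) on its own strand. The strand setting of the counting was not given in the sources used here, so reads over the shared bases cannot be assigned to either gene.

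RefSeq promoter windows on GRCm38.p6 were found for 8 of the 10 genes, all but Hes1 and Hey1. The 250 bases before the start of 3 genes are printed, the chosen receptor Notch1 and the pair Notch2 and Jag1, the receptor and ligand known from bile duct formation. Capitals mark the GC box (GGGCGG, on either strand) and the HES C site (CACGCG, on either strand), which is bound by HES and HEY repressors. The windows, 5′ to 3′ on the gene's strand, are chr2:26503823-26504072 for Notch1, chr3:98013288-98013537 for Notch2 and chr2:137116521-137116770 for Jag1.
Notch1: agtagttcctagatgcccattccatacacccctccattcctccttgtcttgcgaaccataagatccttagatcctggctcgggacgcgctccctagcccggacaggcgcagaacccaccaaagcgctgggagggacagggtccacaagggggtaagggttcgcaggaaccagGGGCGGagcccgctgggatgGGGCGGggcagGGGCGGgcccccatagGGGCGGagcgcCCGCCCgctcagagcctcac
Notch2: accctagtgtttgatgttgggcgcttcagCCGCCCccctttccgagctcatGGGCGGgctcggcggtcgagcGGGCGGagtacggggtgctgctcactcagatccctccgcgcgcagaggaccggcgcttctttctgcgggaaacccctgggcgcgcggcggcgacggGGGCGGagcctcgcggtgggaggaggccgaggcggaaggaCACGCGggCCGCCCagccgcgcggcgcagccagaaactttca
Jag1: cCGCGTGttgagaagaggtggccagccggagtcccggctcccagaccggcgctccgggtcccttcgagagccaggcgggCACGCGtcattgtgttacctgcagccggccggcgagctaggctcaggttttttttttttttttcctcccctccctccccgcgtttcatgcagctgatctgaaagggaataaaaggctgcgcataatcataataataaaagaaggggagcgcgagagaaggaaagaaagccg

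The Notch1 window held 5 GC boxes and no C site, the Notch2 window 5 GC boxes and 1 C site, and the Jag1 window no GC box and 2 C sites. G and C made up 66.0% of the Notch1, 72.0% of the Notch2 and 57.2% of the Jag1 window, against a median of 52.4% over all 32851 windows. Among the other 5 genes, Notch3 held 4 GC boxes, Jag2 5 and Dll4 2, Dll4 held 1 C site, and Notch4 and Rbpj held neither motif. The Rbpj window, chr5:53590096-53590345, lies inside the span given above for that gene. It therefore does not cover the bases before the first base of that span. The RBPJ core (GTGGGAA) and the E-box CACGTG were also searched on both strands and matched in 0 of the 8 windows. Over all windows, 32.7% held a GC box, 7.62% a C site, 5.42% the RBPJ core and 6.02% the E-box. In the printed windows no match shares bases with another.

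Per kilobase of transcript (RPKM, the scale on which genes are compared with each other), Hes1 was the most abundant of the 10 transcripts in each of the 4 groups and Notch2 the next. Mean levels of Hes1 were 16.6 and 14.9 RPKM in Atg7KO non-tumour liver and tumours, and 12.8 and 10.6 in DKO non-tumour liver and tumours. Those of Notch2 were 6.22, 4.19, 3.72 and 6.26 in the same order. Hes1 libraries lay above all Notch2 libraries in each group, the closest being DKO tumours, with at least 8.55 RPKM of Hes1 against at most 7.96 of Notch2. At the other end, Notch3 (0.159 to 0.575) and Jag2 (0.122 to 0.441) were the lowest, and their libraries overlapped in every group.

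The order in between moved with the group. In Atg7KO non-tumour liver it was Notch1 (3.85 RPKM), Rbpj (3.26), Jag1 (2.48), Dll4 (2.13), Hey1 (1.85) and Notch4 (1.28), and from Notch1 down each neighbour overlapped the next. In Atg7KO tumours it was Notch1 (3.97), Dll4 (3.25), Rbpj (2.43), Notch4 (1.58), Hey1 (1.31) and Jag1 (0.988), again with all neighbours below Hes1 overlapping. Jag1 thus stood at the fifth place in one tissue and the eighth in the other. In DKO non-tumour liver Rbpj (2.87) came before Notch1 (1.65), Dll4 (1.59), Hey1 (1.48), Jag1 (1.39) and Notch4 (0.690). There Notch2, Rbpj and Notch1 did not overlap one another, Notch1 to Jag1 overlapped as neighbours, and Jag1, Notch4 and Notch3 were apart. In DKO tumours Rbpj (4.66) was followed by Jag1 (3.40), Notch1 (3.11), Dll4 (2.40), Notch4 (1.52) and Hey1 (1.0). Neighbours from Notch2 to Hey1 overlapped, and Hey1 lay above Notch3 in all libraries.

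**Figure D1:**
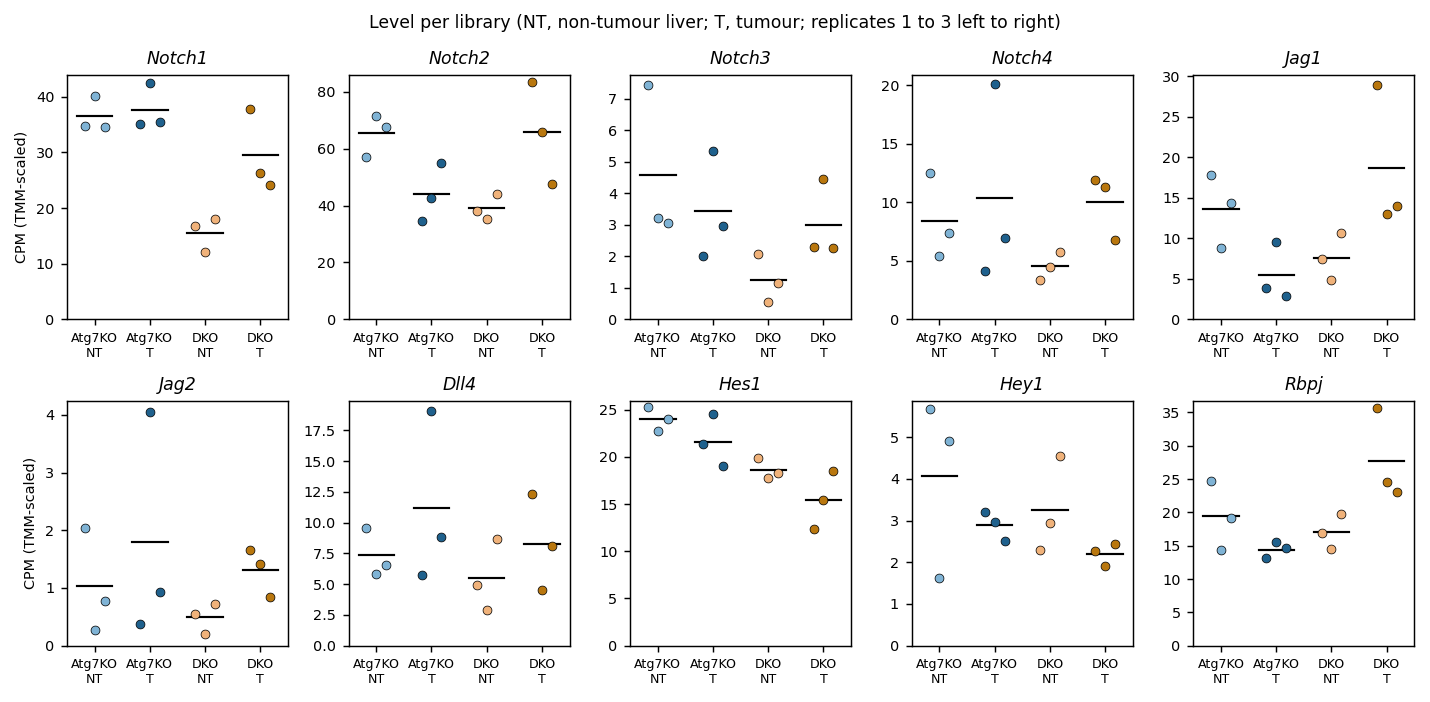
Level of each of the 10 genes in each of the 12 libraries, in TMM-scaled CPM on the vertical axis, which starts at 0 in each panel. Points are libraries, 3 in each of the 4 groups on the horizontal axis, and black lines are group means; Notch1 libraries of DKO non-tumour liver lie at 12.2 to 18 CPM and those of the other 3 groups at 24.1 to 42.5.

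Notch1, the receptor by which the genes were chosen, stood at 34.8, 40.2 and 34.6 CPM in Atg7KO non-tumour liver and at 35.1, 42.5 and 35.4 in Atg7KO tumours. In DKO it stood at 16.7, 12.2 and 18 CPM in non-tumour liver and at 37.9, 26.4 and 24.1 in tumours, from 179 to 1303 reads per library. The 3 DKO non-tumour libraries were below the other 9, and the DKO tumour libraries reached into the range of Atg7KO. Between the non-tumour groups the log2 fold change was -1.22 (SE 0.22), and it ran from -1.33 to -1.08 when each library was left out in turn. This is the value that chose the genes. Tumour against non-tumour liver, the log2 fold change was 0.04 (SE 0.21) in Atg7KO, with overlapping libraries, and 0.91 (SE 0.21) in DKO, with none. Between the tumours of the genotypes, in libraries that played no part in the choice, it was -0.35 (SE 0.21; edgeR adjusted p = 0.411), and the libraries overlapped.

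Notch2, the receptor tied to bile duct formation, had 57.0, 71.5 and 67.7 CPM in Atg7KO non-tumour liver and 34.6, 42.6 and 54.9 in Atg7KO tumours. It had 38.1, 35.2 and 43.9 CPM in DKO non-tumour liver and 83.6, 66.0 and 47.7 in DKO tumours. Tumour libraries thus lay below all non-tumour libraries in Atg7KO and above all of them in DKO. Of the 14443 genes tested, 194 (1.34%) showed this combination, and Notch2 was the only one of the 10 among them. The log2 fold change was -0.57 (SE 0.23) in Atg7KO (edgeR adjusted p = 0.250) and 0.75 (SE 0.23) in DKO (edgeR adjusted p = 0.128). The difference between these tumour effects was 1.32 (SE 0.33; edgeR adjusted p = 0.175), and DESeq2 called it with an adjusted p of 0.0281. Neither edgeR comparison passed after adjustment, nor did that of the tumours of the genotypes, 0.58 (SE 0.23; edgeR adjusted p = 0.253). Between the non-tumour groups, Notch2 was at 39.1 ± 4.44 CPM in DKO and 65.4 ± 7.49 in Atg7KO (SD, n = 3), without overlap. The log2 fold change there was -0.74 (SE 0.23), and -0.18 with an offset for gene length.

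Notch3, known from mural cells, was read 8 to 258 times per library, and its counting error is correspondingly large. It ran from 3.06 to 7.42 CPM in Atg7KO non-tumour liver, 2.0 to 5.35 in Atg7KO tumours, 0.546 to 2.08 in DKO non-tumour liver and 2.25 to 4.44 in DKO tumours. The DKO non-tumour group was the lowest of the 4 and overlapped Atg7KO tumours but neither of the other groups. Its log2 fold changes were -1.84 (SE 0.57, no test) between the non-tumour groups and 1.22 (SE 0.57; edgeR adjusted p = 0.225) from DKO non-tumour liver to tumour. In Atg7KO tumours, which overlapped non-tumour liver, the value was -0.41 (SE 0.54; edgeR adjusted p = 0.742). Notch4, the endothelial receptor, ran from 5.4 to 12.5 CPM in Atg7KO non-tumour liver, 4.14 to 20.1 in Atg7KO tumours, 3.40 to 5.76 in DKO non-tumour liver and 6.82 to 11.9 in DKO tumours. Its DKO tumours lay above DKO non-tumour liver in every library, with a log2 fold change of 1.13 (SE 0.53; edgeR adjusted p = 0.229). In Atg7KO the change was 0.30 (SE 0.52; edgeR adjusted p = 0.804), and it was -0.60 without Atg7KO tumour 2, the library at 20.1 CPM.

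Jag1, the ligand needed for bile ducts, had 17.8, 8.81 and 14.3 CPM in Atg7KO non-tumour liver and 3.88, 9.51 and 2.89 in Atg7KO tumours. In DKO it had 7.43, 4.85 and 10.6 CPM in non-tumour liver and 28.9, 13.0 and 14 in tumours. All 3 DKO tumours were above all Atg7KO tumours and above all DKO non-tumour libraries, and in Atg7KO 1 tumour library overlapped the non-tumour range. Between the tumours, Jag1 averaged 18.7 ± 8.89 CPM in DKO and 5.43 ± 3.57 in Atg7KO (SD, n = 3), 3.44-fold higher in DKO. The log2 fold change was 1.78 (SE 0.49; edgeR adjusted p = 0.161), and 1.32 to 2.49 when each library was left out in turn. DESeq2 gave 1.79 with an adjusted p of 0.0175, so the call depended on the tool. Tumour against non-tumour liver, Jag1 had log2 fold changes of -1.33 (SE 0.49; edgeR adjusted p = 0.219) in Atg7KO and 1.29 (SE 0.49; edgeR adjusted p = 0.162) in DKO. The first was -2.02 without Atg7KO tumour 2, and limma voom, which gives libraries quality weights, called it at -1.91 with an adjusted p of 0.0334. The second was 0.82 without DKO tumour 1. The difference of the tumour effects was 2.62 (SE 0.69; edgeR adjusted p = 0.175), and DESeq2 called it with an adjusted p of 0.0201. Jag1 thus had the largest such difference among the 10.

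Jag2, the second Jagged ligand, had 3 to 115 reads per library and at most 4.05 CPM, in Atg7KO tumour 2. Its log2 fold change in Atg7KO tumours was 0.78 (SE 0.84; edgeR adjusted p = 0.674), and -0.65 without that library. In DKO the tumours, at 0.844 to 1.66 CPM, lay above the non-tumour libraries, at 0.205 to 0.729, with a log2 fold change of 1.35 (SE 0.88; edgeR adjusted p = 0.381). Dll4, the endothelial ligand, ran from 5.83 to 9.61 and from 5.71 to 19.1 CPM in Atg7KO non-tumour liver and tumours, and from 2.87 to 8.64 and from 4.54 to 12.3 in DKO. Groups overlapped in both genotypes, with log2 fold changes of 0.61 (SE 0.51; edgeR adjusted p = 0.580) and 0.59 (SE 0.52; edgeR adjusted p = 0.522). Without Atg7KO tumour 2, which again held the highest value, the first was -0.02. Notch4, Jag2 and Dll4 all had their highest level in that library. Between the tumours of the genotypes the libraries of these 3 genes and of Notch3 overlapped, with log2 fold changes of -0.06, -0.45, -0.43 and -0.20 (edgeR adjusted p = 0.968, 0.815, 0.692 and 0.881). Without Atg7KO tumour 2 all 4 values were above 0, at 0.87, 1.0, 0.21 and 0.28.

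Rbpj, the DNA-binding partner of the cleaved receptors, had 24.7, 14.4 and 19.1 CPM in Atg7KO non-tumour liver and 13.1, 15.5 and 14.7 in Atg7KO tumours. It had 16.9, 14.5 and 19.8 CPM in DKO non-tumour liver and 35.6, 24.5 and 23.0 in DKO tumours. The DKO tumours were above every Atg7KO tumour and every DKO non-tumour library, and overlapped Atg7KO non-tumour liver in 1 library of that group. Between the tumours it averaged 27.7 ± 6.87 CPM in DKO and 14.4 ± 1.24 in Atg7KO (SD, n = 3), 1.92-fold higher in DKO. The log2 fold change was 0.94 (SE 0.24; edgeR adjusted p = 0.148), from 0.73 to 1.08 when each library was left out. DESeq2 called it with an adjusted p of 0.0211. From non-tumour liver to tumour it was 0.70 (SE 0.24; edgeR adjusted p = 0.140) in DKO and -0.43 (SE 0.24; edgeR adjusted p = 0.388) in Atg7KO, a difference of 1.12 (SE 0.34; edgeR adjusted p = 0.177).

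The targets had their lowest means in DKO tumours. Hes1, a transcriptional repressor, had 25.3, 22.8 and 24 CPM in Atg7KO non-tumour liver and 21.4, 24.6 and 19.0 in Atg7KO tumours. It had 19.9, 17.8 and 18.3 CPM in DKO non-tumour liver and 12.4, 15.4 and 18.5 in DKO tumours. Every DKO tumour lay below every Atg7KO tumour, and the tumours overlapped non-tumour liver in both genotypes. The log2 fold change between the tumours was -0.49 (SE 0.18; edgeR adjusted p = 0.236). From non-tumour liver to tumour it was -0.15 (SE 0.18; edgeR adjusted p = 0.715) in Atg7KO and -0.27 (SE 0.18; edgeR adjusted p = 0.396) in DKO. Hey1, a related repressor, ran from 1.63 to 5.67 CPM in Atg7KO non-tumour liver, 2.51 to 3.2 in Atg7KO tumours, 2.29 to 4.54 in DKO non-tumour liver and 1.91 to 2.44 in DKO tumours. Its DKO tumours lay below its Atg7KO tumours in every library, by a log2 fold change of -0.39 (SE 0.43; edgeR adjusted p = 0.675). Its changes from non-tumour liver to tumour were -0.50 (SE 0.43; edgeR adjusted p = 0.593) in Atg7KO and -0.56 (SE 0.43; edgeR adjusted p = 0.462) in DKO.

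Counted together, none of the 10 was called by edgeR after adjustment in a comparison in which it was tested. These comparisons share groups with one another. Between DKO and Atg7KO tumours, edgeR called 0.0485% of all genes and 0 of the 10. Notch2, Jag1 and Rbpj were higher and Hes1 lower at an unadjusted p under 0.05, against 8.34% and 8.27% of all genes, and DESeq2 called Jag1 and Rbpj higher, against 1.78%. Libraries did not overlap for Jag1 and Rbpj, which were higher, and for Hes1 and Hey1, which were lower, against 9.95% and 10.3% of all genes. Notch2, Jag1 and Rbpj are over 5000 bases long and Hes1 is under 1500, classes with median log2 fold changes of 0.31 and -0.31 here. With an offset for gene length, 2 of the 10 were higher and 1 lower at an unadjusted p under 0.05. Notch2 was then at 0.16 and Hes1 at -0.29. The share of all genes with the offset was not counted, so nothing particular to the Notch genes is read from these counts.

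In DKO tumours against DKO non-tumour liver, edgeR called 0% of all genes and 0 of the 9 tested. Notch2, Jag1 and Rbpj were higher and none lower at an unadjusted p under 0.05, against 12.2% and 10.3% of all genes. All but Hes1 and Hey1 had a log2 fold change above 0, against 50.9% of all genes. Tumour libraries lay above all non-tumour libraries for 6 of these 9, which were Notch2, Notch3, Notch4, Jag1, Jag2 and Rbpj, against 13.2% of all genes, and DESeq2 called 8.56% of all genes and 0 of the 9. All of these 6 but Jag2 are over 5000 bases long. Genes of that length had a median log2 fold change of 0.47 here, with a lower quartile of 0.17. Their share without overlap was not counted, so nothing particular to the Notch genes is read from the 6. In Atg7KO, edgeR called 0% of all genes and 0 of the 9. Notch2 and Jag1 were lower at an unadjusted p under 0.05, against 8.74% of all genes, and none was higher, against 8.04%. Tumour libraries lay wholly below non-tumour liver for Notch2 alone, against 11.9% of all genes. DESeq2 called 0 of the 9 and 4.03% of all genes, and limma voom called 1 (Jag1) and 2.30%. For the difference of the tumour effects, edgeR called 0% of all genes and 0 of the 9, and Notch2, Jag1 and Rbpj were higher at an unadjusted p under 0.05, against 9.43%. DESeq2 called Notch2 and Jag1 higher, against 1.84%. Between the non-tumour groups, which chose the genes, all 10 had a log2 fold change below 0, where 46.1% of all genes were above it. With an offset for gene length Rbpj was at 0.11 in place of -0.18. Notch1, Notch2, Notch3 and Hes1 did not overlap, against 12.2% of all genes, and nothing is read from these counts.

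**Figure D2:**
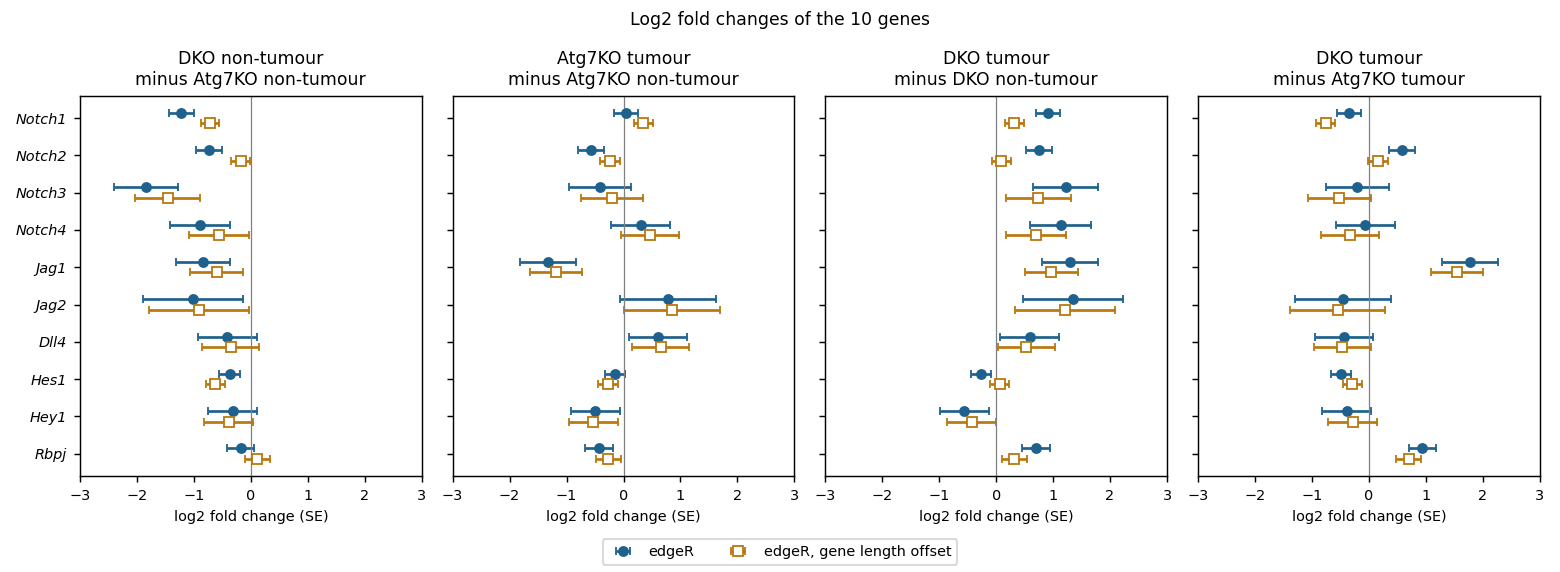
Log2 fold change of each of the 10 genes (vertical axis) in 4 comparisons, with bars of 1 SE; filled circles are the edgeR values and open squares the values with an offset for gene length. Jag1 and Rbpj lie above 0 in DKO tumours against Atg7KO tumours, at 1.78 and 0.94, while Notch2 in the same comparison moves from 0.58 to 0.16 with the offset.

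Fold changes ran with the length of the gene. Across the 14443 genes, which are not independent replicates, Spearman's rho of log2 fold change with length was -0.251 for Atg7KO tumours against non-tumour liver, 0.495 for DKO tumours against non-tumour liver, 0.356 between the tumours and -0.474 between the non-tumour groups. For the 2618 genes over 5000 bases the median log2 fold changes were -0.21, 0.47, 0.31 and -0.40 in that order, and for the 2471 genes under 1500 bases 0.22, -0.47, -0.31 and 0.39. The trend was strongest for the difference of the tumour effects, with a rho of 0.574. Median differences there were 0.70 for the genes over 5000 bases and -0.68 for those under 1500. Notch2 (10506 bases), Notch1 (9489), Notch3 (7943), Notch4 (6604), Rbpj (5953) and Jag1 (5493) are in the long class and Hes1 (1451) in the short one, with Jag2 (4054), Dll4 (3451) and Hey1 (2205) between. The part of this trend in the values of the Notch genes was not tested, and values fitted with an offset that removes the trend are given beside them. The offset left Notch1 at -0.72 between the non-tumour groups, at 0.32 from DKO non-tumour liver to tumour and at 0.35 from Atg7KO non-tumour liver to tumour. Its difference of tumour effects went from 0.87 to -0.03. Between the tumours of the genotypes, the Notch1 value went from -0.35 to -0.76 (edgeR with the offset, adjusted p = 0.113). For Notch2 the offset left 0.09 in DKO and -0.24 in Atg7KO tumours, and a difference of 0.33 in place of 1.32 (edgeR with the offset, adjusted p = 0.776). Jag1 stayed at 1.55 between the tumours (edgeR with the offset, adjusted p = 0.213) and at -1.19 and 0.97 from non-tumour liver to tumour. Rbpj went to 0.70 between the tumours (edgeR with the offset, adjusted p = 0.224) and to 0.32 from DKO non-tumour liver to tumour. Hes1, in the short class, went from -0.49 to -0.29 between the tumours (edgeR with the offset, adjusted p = 0.448). With the offset, 0 of the 9 tested were higher in DKO tumours than in DKO non-tumour liver at an unadjusted p under 0.05, where there were 3 without it.

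**Figure D3:**
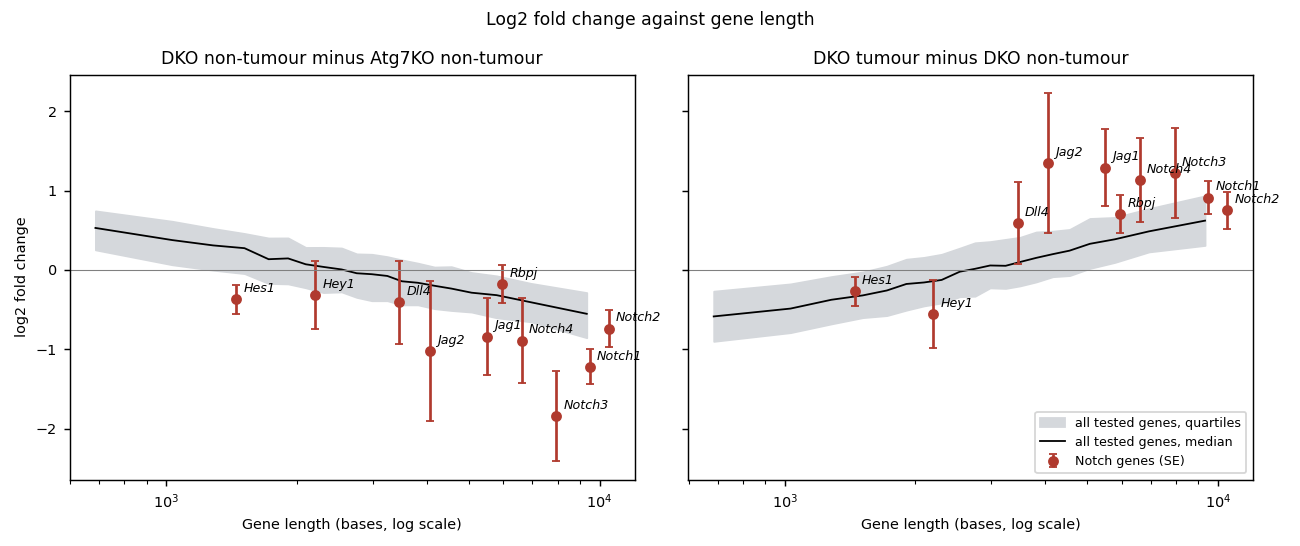
Log2 fold change (vertical axis) against gene length in bases (horizontal log axis) between the non-tumour groups and from DKO non-tumour liver to tumour. The black line is the median and the grey band the quartiles of all tested genes in bins of length, and red points are the 10 Notch genes with bars of 1 SE; the median of genes over 5000 bases is -0.40 in the first panel and 0.47 in the second.

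Of 48 other pathway genes listed by role, 45 were tested, all but the ligand Dll3 and the targets Hes5 and Hey2. edgeR called 0 of the 45 in each tested comparison, and DESeq2 called some of the genes named here, as given with their values. These genes were named for their low edgeR p, and DESeq2 calls were not counted over the 45. Nothing is therefore read from them about the pathway. Of all genes, DESeq2 called 8.56% from DKO non-tumour liver to tumour. In DKO tumours against DKO non-tumour liver, 14 were higher and 1 lower at an unadjusted p under 0.05, against 12.2% and 10.3% of all genes. Libraries did not overlap for 11 that were higher and 2 that were lower, against 13.2% and 13.8% of all genes. The median log2 fold change of the 45 was 0.38, against 0.01 for all genes, and 0.16 with the length offset. By role it was 0.88 for the 6 corepressors, 0.48 for the 8 coactivators and -0.26 for the 6 sugar transferases, which modify ligands and receptors, and 0.23, 0.18 and -0.13 with the offset. Spen, a corepressor that binds Rbpj, had 15.9 ± 5.21 CPM in non-tumour liver and 36.4 ± 7.70 in tumours (SD, n = 3), a log2 fold change of 1.19 (edgeR adjusted p = 0.121; DESeq2 adjusted p = 0.0247), or 0.52 with the offset. The acetyltransferase coactivator Ep300 had 1.14 (edgeR adjusted p = 0.118; DESeq2 adjusted p = 0.0193), or 0.61 with the offset. L3mbtl3, which recruits a histone demethylase to Rbpj, had 1.55 (edgeR adjusted p = 0.121; DESeq2 adjusted p = 0.0198), or 1.5 with the offset. DKO tumours had 4.63 to 16.9 CPM of L3mbtl3 and overlapped DKO non-tumour liver, at 2.32 to 5.33. Numbl, an adaptor related to the Notch antagonist Numb, had 1.92 (edgeR adjusted p = 0.118; DESeq2 adjusted p = 0.00929), or 1.96 with the offset. At 2733 bases it is not a long gene.

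In Atg7KO tumours against non-tumour liver, 2 of the 45 were higher and 3 lower at an unadjusted p under 0.05, near the 8.04% and 8.74% of all genes. Libraries did not overlap for 4 that were higher and 6 that were lower, against 11.6% and 11.9% of all genes, and the median log2 fold change was -0.03. Neurl1a, a ligase in ligand endocytosis, was at 6.97 ± 3.30 CPM in non-tumour liver and 18.1 ± 3.04 in tumours (SD, n = 3), a log2 fold change of 1.38 (edgeR adjusted p = 0.190). Dtx1, a ligase that acts on Notch receptors, averaged 5.45 ± 2.18 and 1.97 ± 1.17 CPM, which gave -1.47 as log2 fold change (edgeR adjusted p = 0.190). The Mastermind-like coactivators Maml1 and Maml2 had log2 fold changes of -0.54 (edgeR adjusted p = 0.228) and -0.85 (edgeR adjusted p = 0.229). The acetyltransferase Kat2b had 0.56 (edgeR adjusted p = 0.238). Neurl1a, Maml1, Maml2 and Kat2b libraries did not overlap between the groups, while those of Dtx1 did.

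Between the tumours of the genotypes, 5 of the 45 were higher in DKO and 1 lower at an unadjusted p under 0.05, against 8.34% and 8.27% of all genes, and the median log2 fold change was -0.05. Maml2 had the lowest p of the 45, at 8.52 ± 2.28 CPM in DKO and 4.34 ± 1.03 in Atg7KO (SD, n = 3), a log2 fold change of 0.98 (edgeR adjusted p = 0.202). Aph1c, a gamma-secretase subunit, had 1.58 (edgeR adjusted p = 0.210), with DKO tumours from 2.31 to 11.9 CPM that overlapped Atg7KO tumours. Ep300 had 0.81 (edgeR adjusted p = 0.236) and the ligase Itch 0.47 (edgeR adjusted p = 0.286). With the length offset Maml2, Aph1c, Ep300 and Itch were at 0.71, 1.37, 0.43 and 0.27. Each is over 5000 bases long, a class with a median log2 fold change of 0.31 here. Libraries of Maml2, Ep300 and Itch did not overlap between the tumours. Of the 45, 5 were higher and 3 lower in DKO without overlap, against 9.95% and 10.3% of all genes. For the difference of the tumour effects, 10 were higher and 2 lower at an unadjusted p under 0.05, against 9.43% and 8.45% of all genes. Among those with the lowest p were Ep300 (1.74, edgeR adjusted p = 0.175), Spen (1.80, adjusted p = 0.175), Maml2 (1.44, adjusted p = 0.186) and the acetyltransferase Crebbp (0.84, adjusted p = 0.208). With the length offset these log2 differences were 0.92, 0.74, 0.88 and 0.13. DESeq2 called the differences of Ep300 (adjusted p = 0.0219) and Spen (adjusted p = 0.0278), and it called 1.84% of all genes higher.

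**Figure D4:**
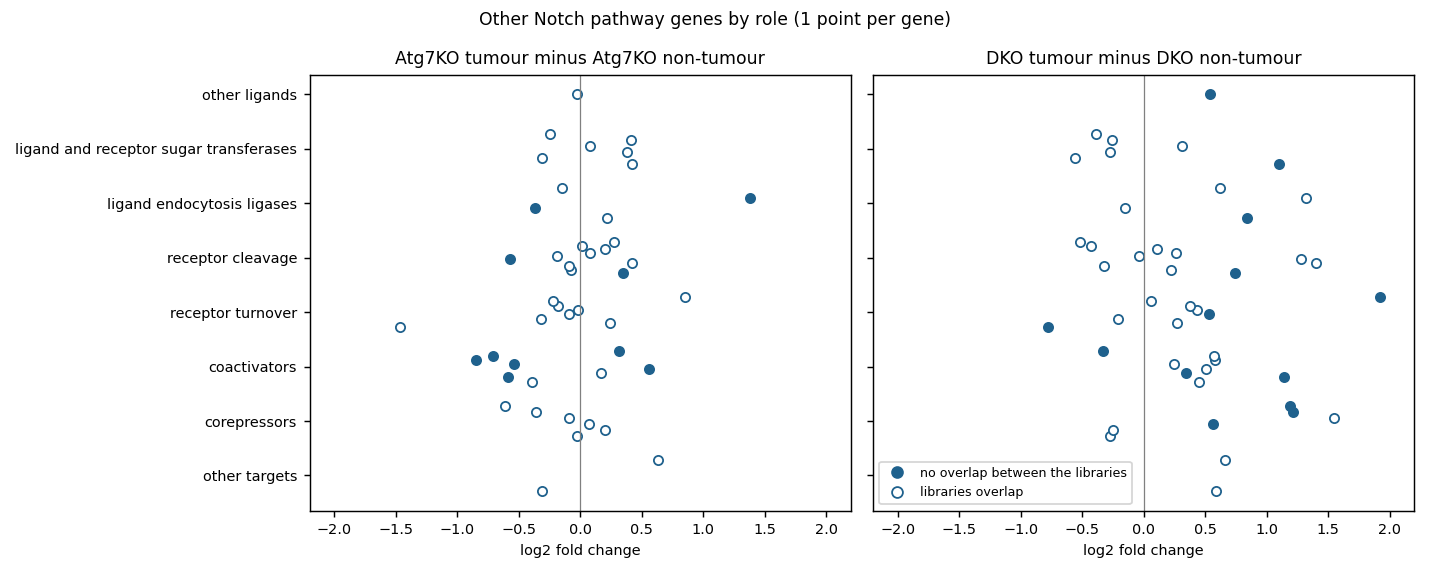
Log2 fold change from non-tumour liver to tumour (horizontal axis) of the 45 other Notch pathway genes tested, grouped by role (vertical axis), in Atg7KO and in DKO; each point is a gene and filled points are genes whose tumour and non-tumour libraries did not overlap. In DKO 11 filled points lie above 0 and 2 below, and in Atg7KO 4 lie above and 6 below.

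In whole tissue, fewer cells of a type and less RNA per cell cannot be told apart, so markers of the cells that use the pathway are given beside its genes. None of the marker genes listed had a level of 0 in any group, and hepatocyte markers, which include Alb, summed to 23407 to 102977 CPM over the libraries. Cholangiocyte markers (8 genes, Krt19 and Sox9 among them) summed to 494 to 1246 CPM in Atg7KO non-tumour liver, 477 to 6525 in Atg7KO tumours, 360 to 1201 in DKO non-tumour liver and 473 to 1091 in DKO tumours. The highest sum was that of Atg7KO tumour 2, which also had the lowest hepatocyte sum, and 6400 CPM of it came from Spp1. Spp1 made up most of the sum in the other libraries too, at 307 to 1099 CPM. Between the tumours of the genotypes, where Jag1 was 3.44-fold higher in DKO, the duct marker Epcam ran from 8.25 to 17.1 CPM in DKO and from 0.853 to 7.64 in Atg7KO. Krt7, a keratin of bile ducts, ran from 4.37 to 53.5 and from 0.341 to 2.18. Without overlap, 2 of the 8 were higher and 1 lower in DKO tumours, against 9.95% and 10.3% of all genes, and the median log2 fold change was 0.51. In Atg7KO tumours, where Jag1 and Notch2 had values below non-tumour liver, libraries of 4 of the 8 cholangiocyte markers did not overlap and were lower, with a median log2 fold change of -1.46; 11.9% of all genes were lower without overlap. Of the 7 stellate cell markers, 6 were lower there without overlap, with a median of -1.21 and sums of 220 to 316 CPM against 473 to 760.

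Endothelial markers (10 genes, Pecam1 and Cdh5 among them) summed to 353 to 462 CPM in Atg7KO non-tumour liver, 327 to 408 in Atg7KO tumours, 229 to 315 in DKO non-tumour liver and 311 to 339 in DKO tumours. From DKO non-tumour liver to tumour, where Notch4 had higher values, 8 of the 10 had a log2 fold change above 0, against 50.9% of all genes, with a median of 0.49 and no overlap for 3, against 13.2%. Between the non-tumour groups all 10 were below 0, with a median of -0.55 and no overlap for 2, against 12.2% of all genes. Mural markers, of which 7 of 8 were tested, summed to 70.2 to 150, 51.5 to 94.3, 71.2 to 108 and 73.2 to 93.4 CPM in the order above. Macrophage markers (7 genes) summed to 757 to 1112, 283 to 1426, 1079 to 1283 and 533 to 823 CPM, and lymphocyte markers (8 genes) to 20.7 to 69.5, 14.6 to 47.9, 28.4 to 44.8 and 20.1 to 25.1. The part of these cells in the Notch values was not tested.

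The pattern of Notch1 over the 12 libraries was closest to that of Prrc2a, Iqsec1, Scaf1, Ankrd52 and Plxnd1 among 10528 genes with a mean of at least 5 CPM. The measure was the mean absolute difference of log2 CPM, centred for each gene over the libraries, and it was 0.180, 0.185, 0.190, 0.197 and 0.198 in that order. Prrc2a averaged 184 and 151 CPM in Atg7KO non-tumour liver and tumours, and 89.8 and 156 in DKO. Its lowest mean in DKO non-tumour liver follows from the choice by likeness to Notch1, and nothing is read from it. These genes are 4177 to 6907 bases long.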

How the data were processed

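Per the labels, total RNA of 12 liver libraries was sequenced. The values the authors deposited are raw read counts for each RefSeq gene, beside mm10 coordinates and gene lengths in bases. Per the submitters' processing notes the tools were edgeR 3.20.8, Subread 1.5.3 with featureCounts, STAR 2.5.3a and bcl2fastq. For the annotation release and strand setting, the sources used here give no value.

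The counts were filtered with filterByExpr (minimum count 10, minimum total 15; 14443 of 24421 genes kept), scaled by TMM and tested by quasi-likelihood F test in edgeR 4.0.16 (robust, legacy deviances) in 1 fit of 12 libraries in R 4.3.3. Tests were two-sided, with Benjamini-Hochberg adjustment over all genes tested and calls at an adjusted p under 0.05. Fold changes are log2. The common biological coefficient of variation was 0.3647. CPM are TMM-scaled, and RPKM divide them by length in kilobases. An exact permutation test of 3 against 3 libraries could not fall below 0.1, so none was run.

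The members, the pathway and marker lists and the tests were chosen with earlier results of these data known. Named were all 10 members, the 5 other pathway genes with the lowest edgeR p in each tested comparison, the 5 genes most like Notch1, and Atg7 and Hmgb1. A pathway gene that this rule names is not reported here. Alternatives were RLE factors, no filter, DESeq2 1.42.0 on all genes with any read, limma 3.58.1 voom with quality weights, only the groups compared, a replicate block, an offset for gene length fitted per library by lowess, and leaving out each library. Promoter windows are from RefSeq (GRCm38.p6). Figures used matplotlib 3.10.9 in python 3.11.15.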

Additional observations from a re-analysis of the deposited data

Results flagged for a closer look

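The tumour effect on Notch2 differed in direction between the genotypes: the log2 difference, DKO minus Atg7KO, was 1.32 (SE 0.33), because every Atg7KO tumour library lay below and every DKO tumour library above the non-tumour libraries of its genotype. The difference itself was tested and did not pass with edgeR (adjusted p = 0.175), passed with DESeq2 (adjusted p = 0.0281), and was 0.33 with the offset for gene length. Among all genes tested, 1.34% showed this combination. No gene was flagged by a rule for single outlying libraries, since groups of 3 are too small for that. Values without single libraries are given with the genes above.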

How the results depend on the processing

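Counts of genes called depended on the tool, and the cause was not tested. From Atg7KO non-tumour liver to tumour, edgeR called 0 genes, DESeq2 611 and limma voom 332. From DKO non-tumour liver to tumour, edgeR called 0, DESeq2 1102, limma voom 0 and a fit of only the groups compared 1. Between the tumours, edgeR called 7, DESeq2 551, limma voom 37, RLE factors 12, no filter 11 and the length offset 13. For the difference of the tumour effects, edgeR called 0, DESeq2 408 and limma voom 0. Between the non-tumour groups edgeR called 8, DESeq2 189 and limma voom 561. Leaving out each library in turn gave 0 to 3 calls in Atg7KO, 0 to 597 in DKO, 7 to 30 between the tumours, 0 to 0 for the difference and 6 to 8 between the non-tumour groups. The 597 came without DKO non-tumour 3 and the 30 without DKO tumour 3.

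Same-numbered tumour and non-tumour libraries had correlations of their deviations from 0.016 to 0.311 in Atg7KO and from 0.0242 to 0.332 in DKO, and differently numbered ones from -0.246 to 0.161. Not every same-numbered value was over 0.1, not every library correlated best with its own number, and the labels do not tie numbers to animals, so the libraries were not treated as pairs. Fits with a replicate block called 3 genes in Atg7KO and 1 for the difference of the tumour effects, against 0 and 0, and gave Notch4 0.03 between the tumours and Dll4 0.16 for the difference.

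Of the 10 genes, 5 values passed elsewhere and not in edgeR. They were Jag1 in Atg7KO with limma voom and, with DESeq2, Jag1 and Rbpj between the tumours and Notch2 and Jag1 for the difference. Values of uncalled members changed sign as follows. With the length offset Hes1 was 0.06 from DKO non-tumour liver to tumour, and 0.33 for the difference, where Hey1 was 0.10 and Notch1 -0.03, and Rbpj was 0.11 between the non-tumour groups. With limma voom Notch4 was -0.13 in Atg7KO and 0.23 between the tumours, Jag2 was 0.13 between the tumours, and Hes1 and Hey1 were 0.05 and 0.30 for the difference. Leaving out libraries gave ranges across 0. In Atg7KO these were -0.06 to 0.12 for Notch1, -0.88 to 0.13 for Notch3, -0.60 to 0.71 for Notch4, -0.65 to 1.76 for Jag2 and -0.02 to 0.93 for Dll4. Between the tumours they were -0.59 to 0.28 for Notch3, -0.43 to 0.87 for Notch4, -0.92 to 1.0 for Jag2 and -0.83 to 0.21 for Dll4. For the difference they were -0.40 to 2.01 for Jag2, -0.43 to 0.62 for Dll4, -0.27 to 0.01 for Hes1 and -0.38 to 0.31 for Hey1, and between the non-tumour groups -0.36 to 0.04 for Rbpj. RLE factors, no filter and the fit of only the groups compared changed no direction and no call among the members. Few reads limit Jag2 and Notch3 most, and intervals from counts would cover counting error only.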
